A study of Homo sapiens with 4 samples.

Results

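The genes of axon guidance, the ephrins and their Eph receptors, the semaphorins with plexins and neuropilins, the slits with robo receptors and the netrins with UNC5 receptors, were followed in DAOY cells, a line established from a human cerebellar medulloblastoma. Members were taken by gene symbol alone, as every symbol of these 9 families in the raw count table. In all, 68 symbols matched, and 65 of them reached at least 10 counts in at least 2 libraries, among 14970 such genes of the 20363 in the table. The 3 left out were EPHA6, NTN5 and SEMA5B, with at most 11, 5 and 6 counts in any library. By family, 13 of 14 Eph receptors, 8 of 8 ephrins, 19 of 20 semaphorins, 9 of 9 plexins, 2 of 2 neuropilins, 3 of 3 slits, 4 of 4 robo receptors, 3 of 4 netrins and 4 of 4 UNC5 receptors were kept.

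RNA was sequenced in 4 libraries, 1 for each condition. ZNF521 cells overexpressed ZNF521, a zinc finger transcription co-factor, and were treated with SAG, a small molecule that switches on the Hedgehog pathway by binding SMO, or with its solvent DMSO. Control cells (CTL) were given the same 2 treatments. In the methods ZNF521 is carried by a lentiviral vector under a ubiquitin promoter together with EGFP, and cells are starved before SAG, while the dose given to the sequenced cells is not named. The series' description calls the controls WT and a legend of the study gives them a control vector, so that the ZNF521 comparison may also hold an effect of transduction, which was not tested. With 1 library per condition, p values hold no spread between replicates. After the other factor is taken into account, they rest on 1 residual degree of freedom, the difference between the 2 pairs of libraries. The rest of their spread is shared across genes (11.7 prior degrees of freedom). Intervals for a pair of libraries cover counting error only.

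Axon guidance genes encode surface and secreted proteins that steer growing axons and migrating cells by attraction or repulsion. Ephrins are membrane-bound ligands of the Eph receptor tyrosine kinases. Semaphorins are secreted (class 3) or membrane-bound (classes 4 to 7) and act on plexins, to which most secreted ones bind through neuropilins, while slits are secreted ligands of robo receptors and netrins are secreted ligands of DCC and UNC5 receptors. In the developing cerebellum such cues guide granule cell precursors, the cells from which medulloblastomas of the SHH subgroup arise, and many of the same genes are active in vessels, bone and epithelia.

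Total counts ran from 12294833 to 16314685 per library. Transcripts that each condition should raise were examined as a check of the labels. ZNF521 itself had normalized counts of 2072 (SAG) and 2013 (DMSO) in ZNF521 cells, against 751 (SAG) and 714 (DMSO) in CTL cells, and GLI1, a direct target of the Hedgehog pathway, 318 (ZNF521) and 324 (CTL) with SAG, against 44.2 (ZNF521) and 75.4 (CTL) with DMSO. PTCH1, also a Hedgehog target, separated the treatments less, with 579 (ZNF521) and 527 (CTL) with SAG, against 301 (ZNF521) and 468 (CTL) with DMSO. The study reports that ZNF521 raised both GLI1 and PTCH1 in DAOY cells by RT-qPCR. In these libraries both were lower in ZNF521 than in CTL cells with DMSO. With SAG, GLI1 was similar in both kinds of cells and PTCH1 somewhat higher in ZNF521 cells. The reason for this difference was not tested. Of the cerebellar granule lineage markers, 8 of 12 reached the count minimum (ZIC1 at 241 to 303), whereas ATOH1 was at 0.844 to 1.13 and BARHL1 at 0 to 2.06. Of the neuron markers 14 of 15 reached it, of the epithelial ones 7 of 8, of the glial ones 8 of 11, of the endothelial ones 6 of 9 and of the leukocyte ones 2 of 9. The minimum is low, reached by 14970 of the 20363 genes, so that these counts do not name a cell type. Neuron markers ran from DCX (3.38 to 6.03) to NEFL (4425 to 5416), with RBFOX3 at 7.89 to 16.1. The summed level of the 12 fibroblast, mural and mesenchymal markers, all of them above the minimum, was 50889 (SAG) and 50399 (DMSO) in ZNF521 cells, against 56426 (SAG) and 78991 (DMSO) in CTL cells. Most of that excess lay in COL1A1, COL1A2 and COL3A1, fibrillar collagen genes, whose sum was 19530 (SAG) and 20359 (DMSO) in ZNF521 cells, against 21461 (SAG) and 44250 (DMSO) in CTL cells. The other 9 markers summed to 31359 (SAG) and 30039 (DMSO) in ZNF521 cells, against 34964 (SAG) and 34741 (DMSO) in CTL cells. Of the 12, 5 were highest in CTL cells with DMSO (the 3 collagens, DCN and PDGFRB) and 3 were lowest there (LUM, RGS5 and CNN1). Their part in the members' values was not tested. In bulk RNA, fewer cells of a type and less RNA per cell cannot be told apart.

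Members were expressed over a wide range. Levels are normalized counts (counts divided by the size factor of the library) per kb of exon length, averaged over the 4 libraries. They ran from 0.928 for ROBO2, a slit receptor, to 530.6 for EPHB4, the receptor of ephrin-B2. The median of the 65 members was 34.9 per kb, against 60.9 per kb for the 14601 tested genes with a known length, and 24 members lay above the median of all genes. EPHB4 stood at percentile 92.7 of all tested genes.

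In the ephrin system the highest levels were those of EPHB4, of EFNA1, a lipid-anchored ligand of EPHA receptors, and of EFNB3, a transmembrane ephrin. EPHB4 had 493.6 (SAG) and 537 (DMSO) normalized counts per kb in ZNF521 cells, against 482 (SAG) and 609 (DMSO) in CTL cells. The normalized counts of EFNA1 were 749 (SAG) and 908 (DMSO) in ZNF521 cells, against 853 (SAG) and 777 (DMSO) in CTL cells, and those of EFNB3 757 (SAG) and 821 (DMSO) in ZNF521 cells, against 753 (SAG) and 1115 (DMSO) in CTL cells. EFNA1 was thus highest in ZNF521 cells with DMSO, and EPHB4 and EFNB3 in CTL cells with DMSO. EPHB2 and EPHA2 followed at 264 and 236 normalized counts per kb. At the other end, EPHA1, EPHA3, EPHA7, EPHA8 and EPHA10 lay between 1.85 and 2.69 per kb.

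Among semaphorins and their receptors, PLXNB2 (315 per kb), SEMA6B (279.7 per kb) and SEMA3E (163 per kb) led. PLXNB2 is a receptor of class 4 semaphorins that mouse granule cell precursors need for their normal migration. SEMA6B is a transmembrane semaphorin, and SEMA3E is a secreted one that binds PLXND1 without a neuropilin. SEMA3E had normalized counts of 1526 (SAG) and 1306 (DMSO) in ZNF521 cells, against 1418 (SAG) and 1245 (DMSO) in CTL cells, so that each SAG library lay above the DMSO library of the same cells. The neuropilins NRP2 and NRP1 were at 73.7 and 62.1 per kb.

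The receptor ROBO1 was the main member of the slit system, at 94.97 normalized counts per kb, followed by ROBO3, which controls midline crossing of commissural axons, at 24.5 and the ligand SLIT3 at 18.0. ROBO1 had 1075 (SAG) and 923 (DMSO) normalized counts in ZNF521 cells, against 1049.9 (SAG) and 1149.9 (DMSO) in CTL cells. ROBO3 had 137 (SAG) and 188 (DMSO) in ZNF521 cells, against 170.3 (SAG) and 189 (DMSO) in CTL cells. For both receptors the values of ZNF521 and CTL cells overlapped. In the netrin system UNC5B, a repulsive netrin receptor, was at 227 per kb, and the ligands NTN1 and NTN4 at 56.1 and 50.3 per kb. NTN1 had 344 (SAG) and 385 (DMSO) normalized counts in ZNF521 cells, against 291 (SAG) and 419 (DMSO) in CTL cells.

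**Figure D1:**
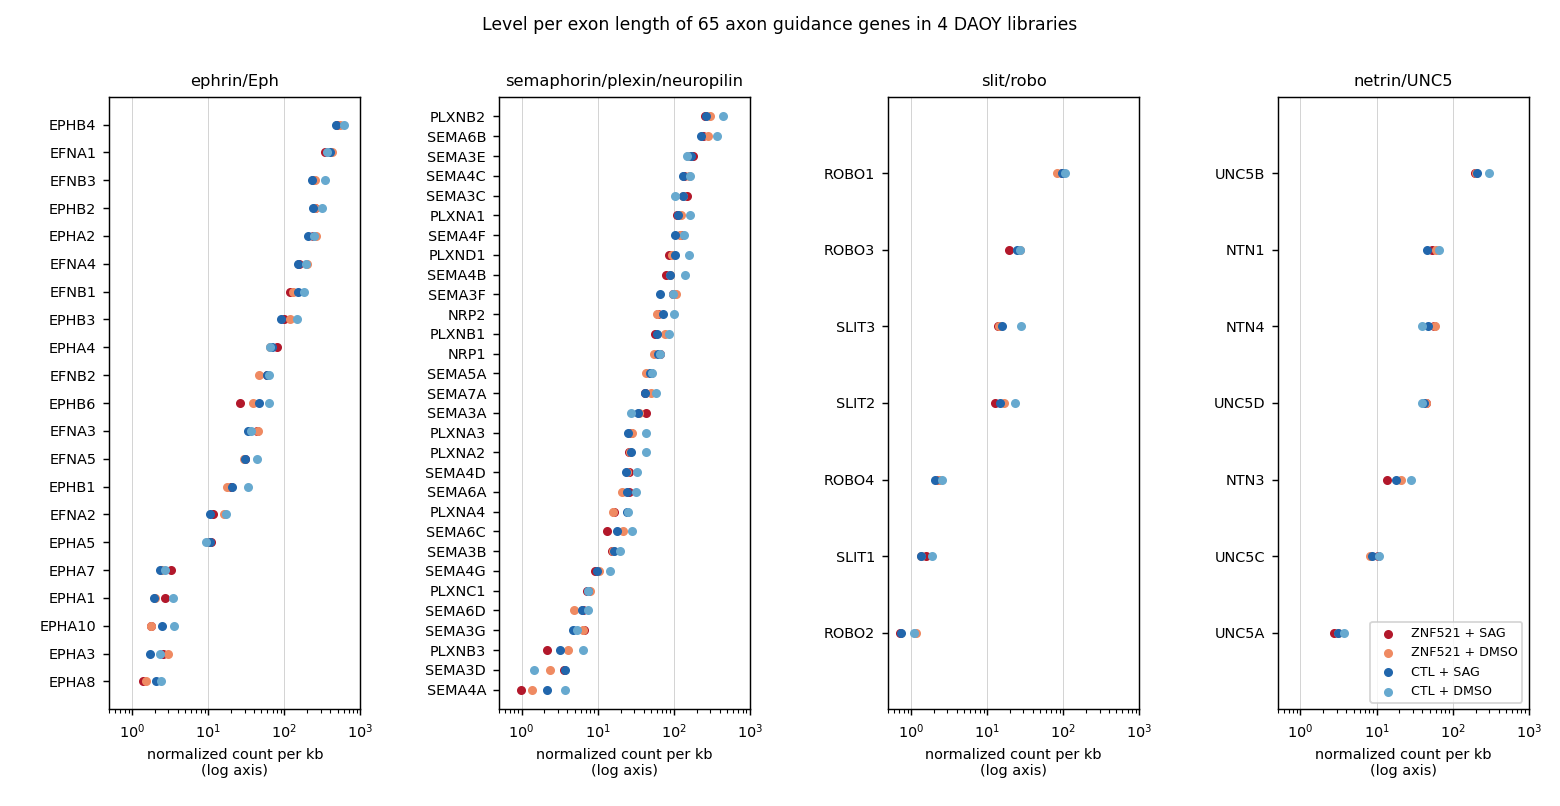
Normalized count per kb of exon length (log axis) of the 65 members, grouped by ligand and receptor system, with 1 point for each of the 4 libraries. Levels run from 0.928 (ROBO2) to 530.6 (EPHB4) as a mean over libraries, and the point of CTL cells with DMSO lies at the right of the others in 46 of the 65 members.

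The library of CTL cells with DMSO stood apart from the other 3, and both comparisons rest on it. Among 9161 genes that averaged at least 200 normalized counts, log2 deviations from the gene's mean had an SD of 0.14 (SAG) and 0.13 (DMSO) in ZNF521 cells, against 0.14 (SAG) and 0.27 (DMSO) in CTL cells. Of the 65 members, 46 (70.8%) were highest in CTL cells with DMSO, as were 34.5% of all tested genes. Of the others, 9 were highest with SAG and 9 with DMSO in ZNF521 cells, and 1 in CTL cells with SAG.

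The share varied by family. The 3 slits, 8 of 9 plexins, 3 of 4 robo receptors, 8 of 13 Eph receptors and 5 of 8 ephrins were highest in CTL cells with DMSO. Semaphorins were of 2 kinds, a grouping made after the values were seen. All 12 semaphorins of classes 4 to 7 were highest in that library, against 1 of 7 class 3 semaphorins (SEMA3B). SEMA3A, SEMA3C, SEMA3D and SEMA3E were lowest there, as were EPHA4, EPHA5, NTN4 and UNC5D outside this class. These were 8 of the 65 members, whereas 37.5% of all tested genes were lowest in that library.

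The summed level of the 9 plexins was 587 (SAG) and 680.4 (DMSO) normalized counts per kb in ZNF521 cells, against 628 (SAG) and 970.2 (DMSO) in CTL cells. For the 3 slits the sums were 28.4 (SAG) and 32.2 (DMSO) in ZNF521 cells, against 32.0 (SAG) and 53.0 (DMSO) in CTL cells. Both sums set CTL cells with DMSO apart from 3 libraries that lay close together.

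**Figure D2:**
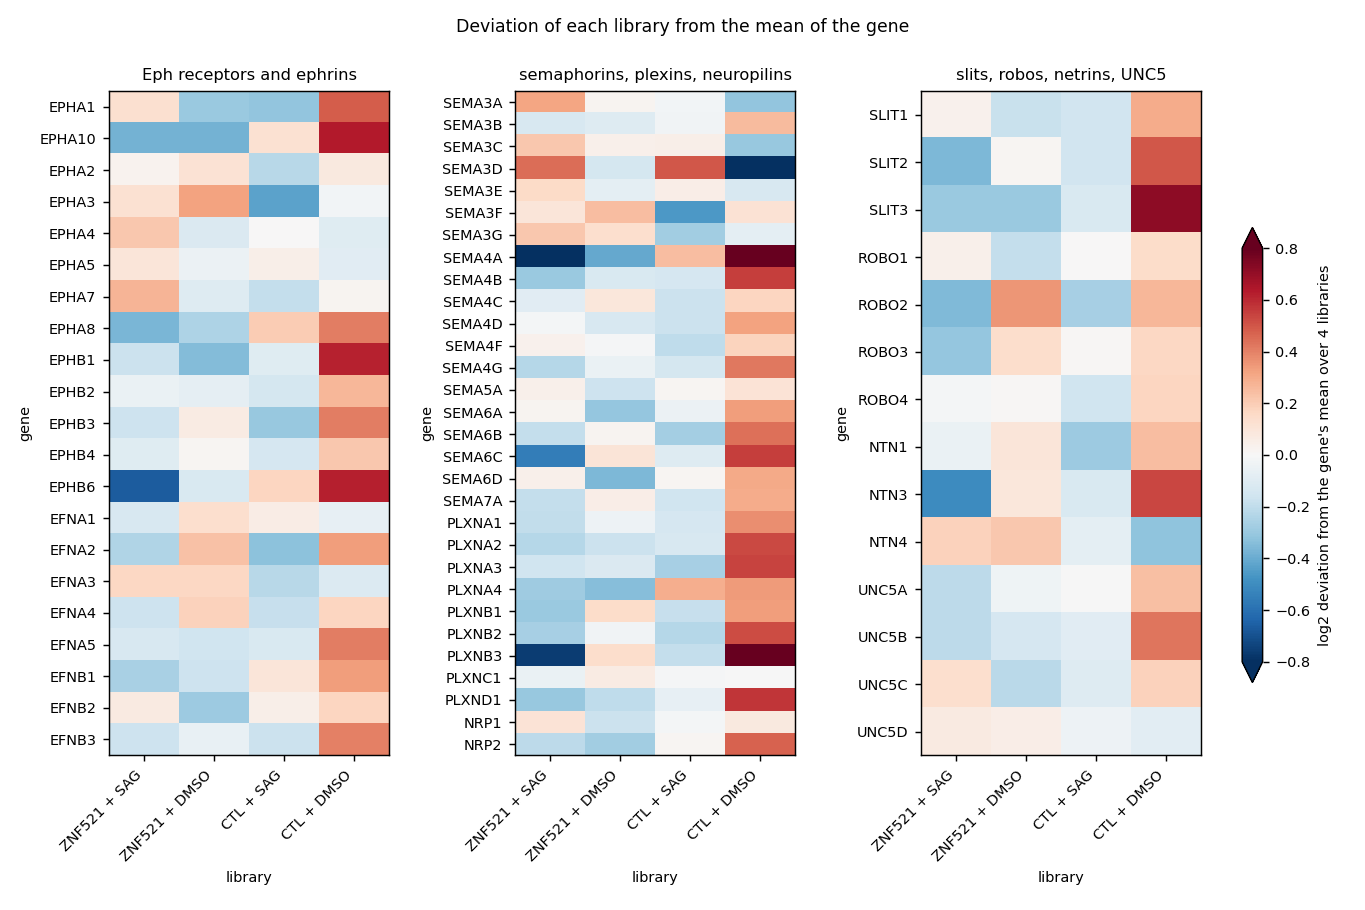
Log2 deviation of each library from the mean of the gene over the 4 libraries, for the 65 members by family (colour scale from -0.8 to 0.8, values beyond it in the end colours). The column of CTL cells with DMSO is red in most members, with 46 of 65 highest there, and blue in SEMA3A, SEMA3C, SEMA3D and SEMA3E.

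The effect of ZNF521 was examined within each treatment. No member passed an adjusted p of 0.05 in edgeR's quasi-likelihood test, where 0.00668% of the tested genes, ZNF521 itself alone, did. At an unadjusted p ≤ 0.05, the threshold of the study, 12 members (18.5%) were lower in ZNF521 cells, beside 3.11% of all tested genes, and 1 was higher, beside 2.36%. DESeq2 gave 4 members (beside 1.12% of all tested genes) and limma 12 (beside 5.44%) at that threshold, and neither gave any past the adjusted one. The 12 were the receptors or co-receptors PLXNA2, PLXNA4, PLXND1, NRP2, UNC5B, EPHB1 and EPHB6, and the ligands EFNB1, SEMA4A, SEMA4B, SEMA6C and SLIT3. NTN4 was the higher one.

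EPHB6, an Eph receptor that lacks kinase activity, had the smallest p. Its normalized counts were 139 (SAG) and 205 (DMSO) in ZNF521 cells, against 249 (SAG) and 338 (DMSO) in CTL cells. Both ZNF521 libraries lay below both CTL libraries, and within each kind of cells the SAG library lay below the DMSO library. The log2 fold change for ZNF521 was -0.79 (standard error 0.17, unadjusted p = 0.000536, adjusted p = 0.406 in edgeR), or 1.73-fold lower. The ratio was 0.559 with SAG (95% counting interval 0.454 to 0.686) and 0.606 with DMSO (0.506 to 0.725). The gene lies on the plus strand of chromosome 7 of hg38, from 142855061 to 142871094.

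PLXNA4, a plexin that works with neuropilins, was lower in both ZNF521 libraries whichever the treatment. Its normalized counts were 269 (SAG) and 260.3 (DMSO) in ZNF521 cells, against 400.3 (SAG) and 412 (DMSO) in CTL cells. Within each kind of cells the interval of the ratio of SAG to DMSO held 1 (0.874 to 1.22 in ZNF521 cells and 0.84 to 1.12 in CTL cells). The log2 fold change was -0.63 (standard error 0.16, unadjusted p = 0.00213, adjusted p = 0.679 in edgeR), with ratios of 0.672 with SAG (0.576 to 0.784) and 0.632 with DMSO (0.538 to 0.741). PLXNA4 lies on the minus strand of chromosome 7, from 132123340 to 132648688.

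The promoter windows of both genes are shown because their values split ZNF521 from CTL cells in both treatments. They are RefSeq windows on GRCh38.p14, from 250 bases before to 50 after the annotated start, 5′ to 3′ on the strand of the gene, with the dinucleotide CG in capitals. The EPHB6 window lies at chr7:142862506-142862805 and the PLXNA4 window at chr7:132576421-132576720, both inside the outermost gene boundaries given above.
EPHB6: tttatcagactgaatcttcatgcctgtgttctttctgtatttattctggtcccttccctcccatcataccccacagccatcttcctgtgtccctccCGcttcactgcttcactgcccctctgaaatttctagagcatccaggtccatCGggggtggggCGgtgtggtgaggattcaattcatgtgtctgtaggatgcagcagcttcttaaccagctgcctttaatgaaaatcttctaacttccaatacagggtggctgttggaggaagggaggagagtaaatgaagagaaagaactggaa
PLXNA4: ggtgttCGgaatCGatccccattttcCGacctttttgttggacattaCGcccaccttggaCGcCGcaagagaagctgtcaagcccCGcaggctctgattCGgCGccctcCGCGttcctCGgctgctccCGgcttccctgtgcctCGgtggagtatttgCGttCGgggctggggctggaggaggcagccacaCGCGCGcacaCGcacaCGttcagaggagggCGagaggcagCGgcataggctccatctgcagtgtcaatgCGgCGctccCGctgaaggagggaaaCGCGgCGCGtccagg
The EPHB6 window holds 3 CG at a GC content of 48.0%, and the PLXNA4 window 30 CG at 64.3%. The median window of the members held 22 CG, against 14 for all 35116 windows of the reference, and 24.5% of all windows held 3 or fewer.

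Other receptors of semaphorins were lower mainly in the DMSO pair. PLXND1, the receptor of SEMA3E, had normalized counts of 828 (SAG) and 893 (DMSO) in ZNF521 cells, against 979 (SAG) and 1511 (DMSO) in CTL cells. Its ratio was 0.846 with SAG (0.772 to 0.928) and 0.591 with DMSO (0.543 to 0.643), and its log2 fold change -0.51 (adjusted p = 0.85 in edgeR). NRP2, a co-receptor of SEMA3F, had 869.8 (SAG) and 832 (DMSO) in ZNF521 cells, against 1013 (SAG) and 1381 (DMSO) in CTL cells, a log2 fold change of -0.49 (adjusted p = 0.888 in edgeR). For both genes the 2 ZNF521 libraries lay below the 2 CTL libraries, with CTL cells with DMSO far above the rest. PLXNA2, a receptor of class 6 semaphorins, had 354 (SAG) and 371 (DMSO) in ZNF521 cells, against 379 (SAG) and 593 (DMSO) in CTL cells. Its ratio with SAG was 0.935 (0.808 to 1.08), an interval that held 1.

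The ligands among the 12 were of several families. SLIT3, a secreted slit, had 199.95 (SAG) and 202 (DMSO) normalized counts in ZNF521 cells, against 226 (SAG) and 400.1 (DMSO) in CTL cells. Its log2 fold change was -0.60 (adjusted p = 0.888 in edgeR). This lies between the log2 ratios of the pairs, -0.17 with SAG (-0.45 to 0.11) and -0.99 with DMSO (-1.24 to -0.74). EFNB1, a transmembrane ephrin whose loss causes craniofrontonasal syndrome, had 396 (SAG) and 425 (DMSO) in ZNF521 cells, against 505 (SAG) and 592 (DMSO) in CTL cells. Its ratios of 0.783 with SAG (0.687 to 0.893) and 0.718 with DMSO (0.631 to 0.815) were close to each other. SEMA4B, a transmembrane semaphorin, had 554 (SAG) and 628 (DMSO) in ZNF521 cells, against 618 (SAG) and 991 (DMSO) in CTL cells. There the ZNF521 and CTL libraries overlapped. SEMA4A, also a transmembrane semaphorin, was at 6.75 (SAG) and 9.26 (DMSO) in ZNF521 cells, against 14.7 (SAG) and 25.1 (DMSO) in CTL cells. Its log2 fold change of -1.30 (standard error 0.47) is the largest in size among the members, but SEMA4A and EPHA8 reached the count minimum in CTL cells only, so that their direction was partly set by the filter.

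The remaining members at that threshold were EPHB1, UNC5B, SEMA6C and NTN4. EPHB1, a receptor of B-class ephrins, had 115 (SAG) and 102 (DMSO) normalized counts in ZNF521 cells, against 121 (SAG) and 196 (DMSO) in CTL cells. UNC5B had 1327 (SAG) and 1406 (DMSO) in ZNF521 cells, against 1441 (SAG) and 2051 (DMSO) in CTL cells. In both, 3 libraries lay close together and CTL cells with DMSO stood above them. NTN4, a netrin of basement membranes, was the member with higher values, 247 (SAG) and 254 (DMSO) in ZNF521 cells, against 205 (SAG) and 172 (DMSO) in CTL cells. Its log2 fold change was 0.40 (standard error 0.18, unadjusted p = 0.0405, adjusted p = 0.907 in edgeR), with a ratio of 1.204 with SAG (0.998 to 1.46) and 1.48 with DMSO (1.21 to 1.81).

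**Figure D3:**
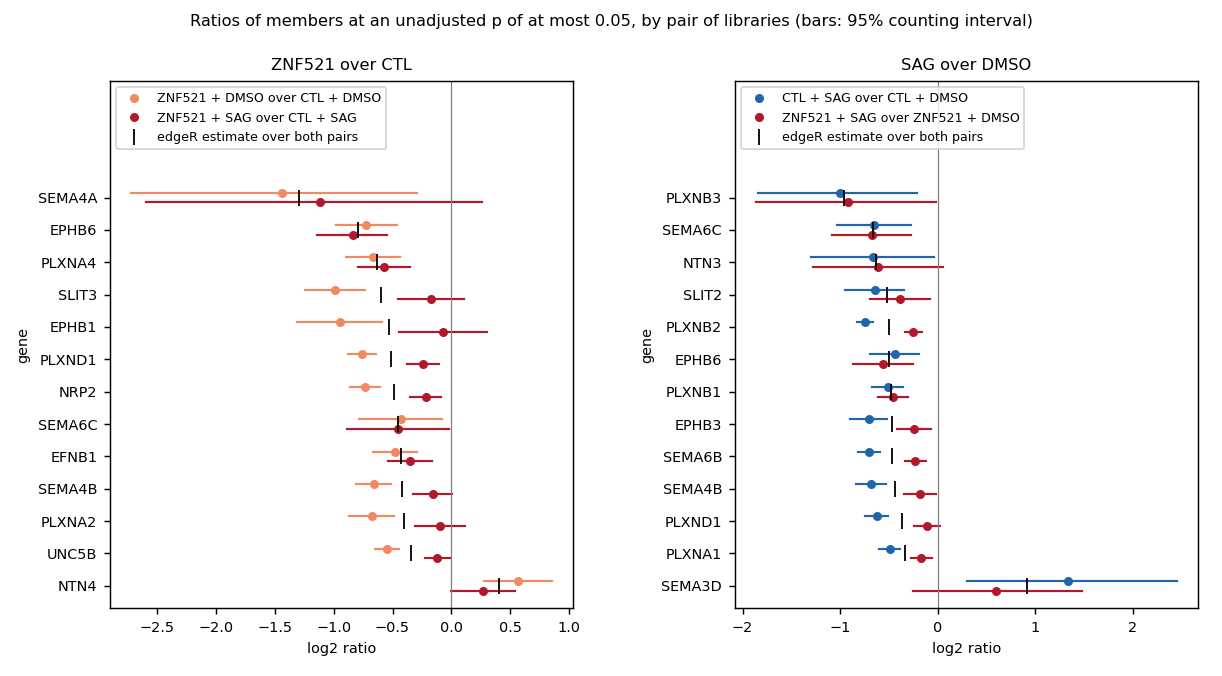
Log2 ratios of the members at an unadjusted p ≤ 0.05, ZNF521 over CTL (left) and SAG over DMSO (right), with a point for each pair of libraries, its 95% counting interval as a bar and the edgeR estimate over both pairs as a tick. EPHB6 and PLXNA4 have intervals that exclude 0 in both ZNF521 pairs and points that lie close together, whereas those of PLXNB2, SEMA6B and SLIT3 lie apart.

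Within single pairs, the counting interval excluded 1 for 32 members that were lower in ZNF521 cells with DMSO than in CTL cells with DMSO (20.8% of all tested genes) and for 4 that were higher (25.4%). With SAG, where the library that stood apart takes no part, 8 were lower (10.2% of all tested genes) and 9 higher (9.50%). In both pairs 7 members were lower (EFNB1, EPHB6, NRP2, PLXNA4, PLXND1, SEMA6C and UNC5B), beside 2.83% of all tested genes, and 2 were higher (SEMA3A and SEMA3C), beside 3.35%. The median log2 ratio of the 65 members was 0.02 with SAG and -0.32 with DMSO. Over both pairs in edgeR it was -0.15, beside 0.00 for all tested genes, with 45 members below 0 and 20 above.

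With 1 library left out, treatment could not be kept in the model, so that a single library of one kind of cells was set against 2 of the other kind and the treatments were no longer balanced. Both choices bear on the counts that follow. Without either CTL library, the fit also shared its estimate of the spread fully across genes. Without the CTL library with DMSO, 3 members reached an unadjusted p of 0.05 for ZNF521, beside 4.05% of all tested genes, and the median became 0.03. If CTL cells with SAG were left out, 33 did so, as did 27.8% of all tested genes. The number was 2 (0.795% of all tested genes) if it was ZNF521 cells with DMSO and 0 (1.06%) if it was ZNF521 cells with SAG.

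Of the 13 members named for ZNF521, EPHB6 (-0.54) and PLXNA4 (-0.59) were still at that threshold without CTL cells with DMSO, and 11 were not. Among these, SLIT3 was at -0.16, EPHB1 at -0.15, SEMA6C at -0.085, UNC5B at -0.073, SEMA4B at -0.061 and PLXNA2 at -0.058. Without ZNF521 cells with DMSO, EPHB6 and SEMA4A were still there, while PLXNA4 was not (-0.60, unadjusted p = 0.0842 in edgeR). Without ZNF521 cells with SAG none of the 13 was, with EPHB6 at -0.54 (unadjusted p = 0.144 in edgeR) and PLXNA4 at -0.66 (unadjusted p = 0.0621 in edgeR). All 13 were there without CTL cells with SAG.

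The response to SAG was examined within each kind of cells. No member passed an adjusted p of 0.05 in edgeR, where 0.0401% of all tested genes did. At an unadjusted p ≤ 0.05, 12 members were lower with SAG, beside 5.12% of all tested genes, and 1 was higher, beside 6.21%. DESeq2 gave 3 members (beside 2.83% of all tested genes) and limma 12 (beside 11.5%) at that threshold, again with 0 past the adjusted one. The 12 were 5 plexins (PLXNA1, PLXNB1, PLXNB2, PLXNB3 and PLXND1), joined by the Eph receptors EPHB3 and EPHB6 and by the ligands SEMA4B, SEMA6B, SEMA6C, SLIT2 and NTN3. SEMA3D was the member with higher values. The adjusted p of these 13 ran from 0.391 to 0.441 in edgeR.

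SEMA6C, a transmembrane semaphorin, had the smallest p for SAG. Its normalized counts were 76.8 (ZNF521) and 105 (CTL) with SAG, against 122 (ZNF521) and 165 (CTL) with DMSO. Both SAG libraries lay below both DMSO libraries. The log2 fold change was -0.66 (standard error 0.20, unadjusted p = 0.00647, adjusted p = 0.391 in edgeR), and the ratios of the pairs, 0.627 in ZNF521 cells (0.472 to 0.831) and 0.636 in CTL cells (0.488 to 0.825), lay side by side. SEMA6C was also lower in ZNF521 cells, with a log2 fold change of -0.45 (adjusted p = 0.91 in edgeR). The comparisons share CTL cells with DMSO, and the same holds for EPHB6, whose log2 fold change for SAG was -0.50 (adjusted p = 0.391 in edgeR). With a library left out and the kind of cells out of the model, that of EPHB6 was -0.11 without CTL cells with DMSO and -0.12 without ZNF521 cells with SAG, whereas within the pairs its log2 ratio was -0.56 in ZNF521 cells and -0.44 in CTL cells.

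The 3 plexins of class B, receptors of class 4 and class 5 semaphorins, were all among the 12. PLXNB1, the receptor of SEMA4D, had normalized counts of 550.1 (ZNF521) and 595 (CTL) with SAG, against 753 (ZNF521) and 848 (CTL) with DMSO. Its ratios were 0.730 in ZNF521 cells (0.656 to 0.813) and 0.702 in CTL cells (0.628 to 0.783). PLXNB2 had 1858 (ZNF521) and 1901 (CTL) with SAG, against 2205 (ZNF521) and 3184 (CTL) with DMSO. Each SAG library lay below both DMSO libraries in these genes, and the ratio of PLXNB2 was 0.842 in ZNF521 cells (0.793 to 0.895) and 0.597 in CTL cells (0.562 to 0.634). PLXNB3, a receptor of SEMA5A, was at 15.2 (ZNF521) and 22.6 (CTL) with SAG, against 28.8 (ZNF521) and 45.2 (CTL) with DMSO. The log2 fold changes were -0.48 for PLXNB1, -0.50 for PLXNB2 and -0.96 for PLXNB3, with standard errors of 0.15, 0.16 and 0.34. PLXNA1, which pairs with neuropilins, had 1236 (ZNF521) and 1293 (CTL) with SAG, against 1390.2 (ZNF521) and 1817 (CTL) with DMSO, a log2 fold change of -0.33. PLXND1 had a log2 fold change of -0.37, with log2 ratios of -0.11 in ZNF521 cells (-0.24 to 0.02) and -0.63 in CTL cells (-0.75 to -0.50).

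SLIT2, the secreted slit that repels axons through ROBO1, had normalized counts of 142 (ZNF521) and 164 (CTL) with SAG, against 185 (ZNF521) and 255 (CTL) with DMSO. Its log2 fold change was -0.52 (standard error 0.18, unadjusted p = 0.01495, adjusted p = 0.391 in edgeR), with ratios of 0.765 in ZNF521 cells (0.616 to 0.95) and 0.640 in CTL cells (0.519 to 0.788). SEMA6B had 1132 (ZNF521) and 1069 (CTL) with SAG, against 1325 (ZNF521) and 1743 (CTL) with DMSO. For both ligands the SAG libraries lay below the DMSO libraries. SEMA4B, given above, had a log2 fold change of -0.43 for SAG. EPHB3, a kinase-active Eph receptor of B-class ephrins, had 449.7 (ZNF521) and 408 (CTL) with SAG, against 532 (ZNF521) and 665 (CTL) with DMSO, a log2 fold change of -0.47. NTN3, a netrin at low level, had 30.4 (ZNF521) and 39.5 (CTL) with SAG, against 46.3 (ZNF521) and 62.3 (CTL) with DMSO, a log2 fold change of -0.63 (standard error 0.28). The SAG and DMSO libraries of EPHB3 and NTN3 did not overlap.

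The promoter windows of SEMA6C, on the minus strand at chr1:151146582-151146881, and of SLIT2, on the plus strand at chr4:20251655-20251954, are given as those of 2 ligands whose SAG libraries lay below the DMSO libraries in both kinds of cells. Capitals mark CG as above.
SEMA6C: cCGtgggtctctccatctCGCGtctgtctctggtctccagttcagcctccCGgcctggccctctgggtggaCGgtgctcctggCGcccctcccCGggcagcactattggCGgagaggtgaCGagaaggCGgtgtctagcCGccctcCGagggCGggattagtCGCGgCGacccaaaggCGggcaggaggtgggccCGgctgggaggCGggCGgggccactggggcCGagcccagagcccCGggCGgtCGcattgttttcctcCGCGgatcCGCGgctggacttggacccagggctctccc
SLIT2: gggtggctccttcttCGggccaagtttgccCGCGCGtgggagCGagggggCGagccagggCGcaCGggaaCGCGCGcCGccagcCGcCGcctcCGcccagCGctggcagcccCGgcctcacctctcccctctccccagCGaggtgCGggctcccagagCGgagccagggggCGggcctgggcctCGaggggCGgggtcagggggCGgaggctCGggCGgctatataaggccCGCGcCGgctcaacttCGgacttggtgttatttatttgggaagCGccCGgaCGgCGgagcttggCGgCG
They hold 28 and 36 CG at GC contents of 71.7% and 74.3%. In contrast, the transcript of SLIT2 has a GC content of 43.9%, and that of SEMA6C 61.4%.

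SEMA3D, a secreted semaphorin, was higher with SAG at a low level, with 29.5 (ZNF521) and 30.4 (CTL) normalized counts with SAG, against 19.6 (ZNF521) and 12.1 (CTL) with DMSO. In edgeR the log2 fold change was 0.92 (standard error 0.38, adjusted p = 0.406). The counting interval of the ratio held 1 in ZNF521 cells (0.841 to 2.80) and excluded it in CTL cells (1.24 to 5.47). No member that averaged 50 or more normalized counts differed by over 2-fold in any pair with an interval that excluded 1. Below that mean, EPHA10 and SEMA4A did so for ZNF521 with DMSO, and PLXNB3 and SEMA3D for SAG in CTL cells.

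Within single pairs, 34 members were lower in CTL cells with SAG than in CTL cells with DMSO with a counting interval that excluded 1 (23.0% of all tested genes), and 4 were higher (27.6%). In ZNF521 cells, whose pair does not hold the library that stood apart, 15 were lower (15.2% of all tested genes) and 9 higher (16.8%). In both pairs, 13 members were lower, beside 6.23% of all tested genes. They were EFNA4, EPHB3, EPHB4, EPHB6, PLXNA1, PLXNB1, PLXNB2, PLXNB3, SEMA4B, SEMA4C, SEMA6B, SEMA6C and SLIT2. Another 3, SEMA3A, SEMA3C and SEMA3E, were higher in both pairs, beside 9.67% of all tested genes. The median log2 ratio of the members was -0.07 in ZNF521 cells and -0.40 in CTL cells, and -0.21 over both in edgeR, beside 0.00 for all tested genes, with 49 members below 0 and 16 above.

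With 1 library left out, the kind of cells could not be kept in the model either, so that ZNF521 was mixed into the SAG comparison and one treatment was a single library. There were then 37 members at an unadjusted p ≤ 0.05 for SAG if it was ZNF521 cells with DMSO, where 40.8% of all tested genes were at that threshold. There was 1 (2.71% of all tested genes) if it was ZNF521 cells with SAG, 4 (2.32%) if it was CTL cells with SAG and 9 (14.6%) if it was CTL cells with DMSO. Of the 13 members named for SAG, EPHB3, PLXNB1, PLXNB2 and SEMA6B were still at the threshold without CTL cells with DMSO. PLXNB2 was then at -0.24, PLXNA1 at -0.14, SEMA4B at -0.11 and PLXND1 at 0.005. Without CTL cells with SAG, EPHB6, PLXNB1, PLXNB3 and SEMA6C were still there, and without ZNF521 cells with SAG none was. All 13 were there without ZNF521 cells with DMSO.

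The class 3 semaphorins, the secreted ligands of neuropilins and plexins, held the members that were higher in both pairs of either comparison. These were 2 of the 65 members for ZNF521 (3.08%, beside 3.35% of all tested genes) and 3 for SAG (4.62%, beside 9.67%), shares no larger than those of all genes. SEMA3A, a repellent of axons that binds NRP1, had normalized counts of 397 (SAG) and 326 (DMSO) in ZNF521 cells, against 315 (SAG) and 254 (DMSO) in CTL cells. Its ratios for ZNF521 were 1.26 with SAG (1.09 to 1.47) and 1.28 with DMSO (1.08 to 1.52), and for SAG 1.22 in ZNF521 cells (1.05 to 1.41) and 1.24 in CTL cells (1.04 to 1.47). SEMA3C, which acts through both neuropilins, had 905 (SAG) and 805 (DMSO) in ZNF521 cells, against 804 (SAG) and 626 (DMSO) in CTL cells. In both genes ZNF521 cells with SAG were highest and CTL cells with DMSO lowest. In edgeR the log2 fold changes for ZNF521 were 0.34 and 0.25 (adjusted p of 0.924 and 0.957), and those for SAG 0.30 and 0.26 (adjusted p of 0.490 and 0.505). SEMA3F, a ligand of NRP2, had 465 (SAG) and 519.6 (DMSO) in ZNF521 cells, against 316 (SAG) and 467 (DMSO) in CTL cells, so that CTL cells with SAG stood below the rest.

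SEMA3B, the class 3 member that was highest in CTL cells with DMSO, was also the 1 member of the 55 with a RefSeq promoter window in which the consensus site of the GLI factors, the DNA-binding effectors of the Hedgehog pathway, was found. The motif searched was GACCACCCA on both strands, its reverse complement being TGGGTGGTC. It occurs in 83 of the 35116 windows of the reference (0.236%). Counted by gene, as for the members, it occurs in 81 of 27305 symbols (0.297%). The match, in capitals, starts 25 bases after 1 of the starts annotated for SEMA3B and reads on the reverse complement, at chr3:50272899-50273198 on the plus strand.
SEMA3B: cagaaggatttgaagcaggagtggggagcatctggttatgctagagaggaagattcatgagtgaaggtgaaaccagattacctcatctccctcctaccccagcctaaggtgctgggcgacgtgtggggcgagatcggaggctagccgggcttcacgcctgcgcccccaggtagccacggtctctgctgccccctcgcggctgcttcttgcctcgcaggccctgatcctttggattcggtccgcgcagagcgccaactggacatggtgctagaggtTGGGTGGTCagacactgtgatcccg
SEMA3B had 88.6 (SAG) and 90.6 (DMSO) normalized counts in ZNF521 cells, against 94.7 (SAG) and 115 (DMSO) in CTL cells. Its log2 fold change for SAG was -0.15 (standard error 0.22, adjusted p = 0.805 in edgeR). A match of letters is not a site, and the absence of a match from these windows says nothing of sites elsewhere.

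Transcript base composition moved with the library that stood apart, and also with both SAG libraries. The median GC content of the members' transcripts was 57.9%, against 49.9% for all tested genes. Across the 65 members, the log2 deviation of CTL cells with DMSO from the gene's mean correlated with GC content (Pearson's r 0.516, Spearman's rho 0.38), as it did across all 14601 tested genes with a known GC content (r 0.504). In ZNF521 cells r was -0.533 (SAG) and 0.155 (DMSO) across members, and -0.466 (SAG) and 0.0827 (DMSO) across all genes. In CTL cells with SAG r was -0.3 across members and -0.369 across all genes. Each deviation is from the mean of 4 libraries, so that these values depend on each other. Pairs without CTL cells with DMSO thus also hold libraries that moved with GC content. These are descriptions across genes of single libraries. Of the 26 members at 60% GC or more, 22 were highest in CTL cells with DMSO, beside 60.9% of all tested genes in that class, and of the 18 between 50% and 60%, 16 were, beside 50.2%. Of the 21 members under 50% GC, 8 were highest there, beside 16.1%. SEMA3A, SEMA3C, SEMA3D and SEMA3E, which were lowest in CTL cells with DMSO, have 40.3% to 45.8% GC.

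When the median deviation of genes of like GC content was taken out of each library, the median deviation of the members in CTL cells with DMSO was 0.19, against 0.29 before. For all tested genes it was 0.01, against 0.002 before. With these offsets 40 of 65 members were highest in that library, a count given without its share over all tested genes. The deviation of SLIT2 in that library was 0.66 with these offsets and 0.50 without them, and that of SEMA3A -0.05 with them and -0.32 without. In this setting 14 members were at an unadjusted p ≤ 0.05 for ZNF521, beside 7.06% of all tested genes, and 4 for SAG, beside 6.69%, so that the share of the members for SAG was no larger than that of all genes. EPHB6 (adjusted p = 0.00646) and PLXNA4 (adjusted p = 0.0323) then passed the adjusted threshold for ZNF521 and SLIT2 (adjusted p = 0.0210) for SAG, in edgeR. That fit called 135 genes for ZNF521 and 99 for SAG in all, and its estimate of the spread was shared fully across genes.

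**Figure D4:**
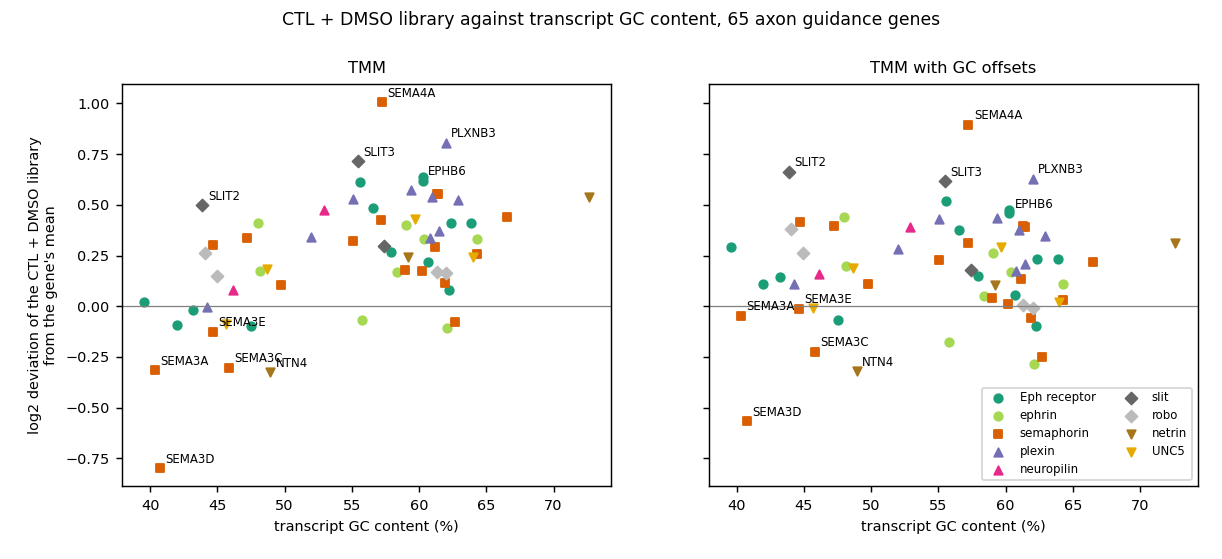
Log2 deviation of CTL cells with DMSO from the mean of the gene against transcript GC content (%), for the 65 members by family, after TMM scaling (left) and with GC offsets added (right). The class 3 semaphorins SEMA3A, SEMA3C, SEMA3D and SEMA3E lie at low GC content and below 0 on the left, and the members' median is 0.29 on the left and 0.19 on the right.

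The other genes of the pathway, 125 in 6 lists, were taken from textbook knowledge, and 112 were tested. None passed the adjusted threshold in edgeR. For ZNF521, 11 were lower and 4 higher at an unadjusted p ≤ 0.05, and for SAG 6 were lower and 4 higher, beside the shares of all genes given above. The median log2 fold change of the 112 was -0.08 in each comparison.

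TENM2, a teneurin that binds latrophilins and takes part in the wiring of synapses, had the smallest p among them. It had normalized counts of 310.5 (ZNF521) and 339 (CTL) with SAG, against 140 (ZNF521) and 246 (CTL) with DMSO, so that the SAG and DMSO libraries did not overlap. The log2 fold change was 0.79 for SAG (standard error 0.20, unadjusted p = 0.00144 in edgeR) and -0.46 for ZNF521. ADGRL1, a latrophilin, was at -0.53 for SAG. TENM4 was at -0.38 and FLRT1, a ligand of UNC5 receptors, at -0.88 for ZNF521. FLRT1 was at a low level, at 10.1 (SAG) and 15.4 (DMSO) in ZNF521 cells, against 16.9 (SAG) and 30.2 (DMSO) in CTL cells.

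Among co-receptors, L1CAM, an adhesion protein that binds NRP1, had 197 (ZNF521) and 169 (CTL) with SAG, against 222 (ZNF521) and 444 (CTL) with DMSO, a log2 fold change of -0.78 for SAG. CTL cells with DMSO stood far above the other libraries. Its relative NRCAM was at -0.56 for ZNF521 and CD72, a receptor of SEMA4D, at -1.0 for SAG. CD72 was at a low level, at 16.9 (ZNF521) and 5.64 (CTL) with SAG, against 22.6 (ZNF521) and 23.1 (CTL) with DMSO. Only CTL cells with SAG stood well below the rest. The netrin relative NTNG2 was at -0.45 for SAG and DRAXIN, which binds DCC, at -0.49 for ZNF521. Of 62 cytosolic effectors, 4 were lower and 3 higher at an unadjusted p ≤ 0.05 for ZNF521, beside 3.11% and 2.36% of all tested genes. For SAG 2 were lower and 3 higher, shares below the 5.12% and 6.21% of all tested genes. ABLIM1, an actin-binding protein, was at 0.45 and RND1, a small GTPase that binds plexins, at -0.54 for SAG. GRB7, an adaptor of Eph receptors, was at 0.92 and MICAL2, an actin oxidase, at -0.39 for ZNF521. Among the 11 proteases that shed or process guidance proteins, BMP1 (-0.43) and MMP2 (-0.46) were lower and MMP9 (0.82) was higher for ZNF521. None of the 5 collapsin response mediators, cytosolic relays of SEMA3A, was at that threshold in either comparison.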

How the data were processed

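Strand-specific RNA libraries of DAOY cells, 1 for each of 4 conditions, were sequenced as paired reads. The authors used STAR (2.7.0e in the submitters' processing notes) for alignment to hg38 and for gene counting, and deposited whole counts of 20363 genes. The deposited signal values of 19860 genes are those counts divided by median of ratios size factors from DESeq2. The annotation and the strand setting of the counting are not given in the sources used here, so that reads of antisense genes may not be told apart. Total counts were 12294833 to 16314685 per library and size factors 0.887 to 1.19.

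Genes that reached 10 counts in 2 or more libraries entered the test of edgeR 4.0.16 in R 4.3.3 (TMM, glmQLFit and glmQLFTest, Benjamini-Hochberg adjustment over all 14970 genes), for ZNF521 with treatment as a further term and for SAG with the kind of cells. The fit has 1 residual and 11.7 prior degrees of freedom. The fit so pairs the libraries across the other factor. Ratios of 2 libraries are given with exact 95% intervals (Clopper-Pearson). Exon length and GC content came from GENCODE 44 for hg38 (all 68 members matched) and promoter windows from RefSeq (GRCh38.p14, 55 of 65 members). Values per library are printed for members at an unadjusted p ≤ 0.05, for up to 3 members of highest level per kb in each of the 4 systems, and for the few others the text names. From the other lists the genes of smallest p are named. Alternatives were other scalings and filters, DESeq2 1.42.0, limma 3.58.1, no further term, offsets in 20 bins of GC content and each library left out, where the further term had to be dropped as well. The members and lists were chosen with earlier results of these data known. The grouping of semaphorins by class, the split of the marker sum by collagens, the classes of GC content, the promoters shown and the capitals in them were chosen after the values were seen.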

Additional observations from a re-analysis of the deposited data

Results flagged for a closer look

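In 5 members the counting intervals of the ratio excluded 1 in opposite directions in the 2 pairs of a comparison. With 1 library per condition the difference between the pairs was not tested. For ZNF521 these were 3 members (4.62%, beside 5.80% of all tested genes), and for SAG 2 (3.08%, beside 5.26%). EFNA1, a ligand of EPHA receptors, had a log2 ratio for ZNF521 of -0.19 with SAG and 0.22 with DMSO, a difference of 0.41 (DMSO pair minus SAG pair). EPHB2, a receptor of B-class ephrins, had 0.09 with SAG and -0.32 with DMSO, a difference of -0.41. SEMA4F, a transmembrane semaphorin, had 0.24 with SAG and -0.17 with DMSO, also a difference of -0.41. For SAG, ROBO1 had a log2 ratio of 0.22 in ZNF521 cells and -0.13 in CTL cells, a difference of -0.35 (CTL pair minus ZNF521 pair). SEMA6A, a transmembrane ligand of class A plexins, had 0.32 in ZNF521 cells and -0.37 in CTL cells, a difference of -0.70. In EPHB2, SEMA4F, ROBO1 and SEMA6A the highest library was CTL cells with DMSO, and in EFNA1 it was ZNF521 cells with DMSO.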

How the results depend on the processing

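The 13 members at an unadjusted p ≤ 0.05 for ZNF521 became 4 with DESeq2 and 7 without treatment in the model, and ranged from 0 to 33 with 1 library left out, which also took the other factor out of the model. The 13 for SAG became 3 with DESeq2 and 4 with GC offsets, and ranged from 1 to 37. Past the adjusted threshold, the 0 members for ZNF521 became 1 without a filter on low counts (EPHB6, adjusted p = 0.00894 in edgeR) and 2 with GC offsets. Beside them, 0.491% of all genes in the fit without a filter passed, and 0.902% with GC offsets. The 0 for SAG became 1 with GC offsets (beside 0.661% of all tested genes). Without the CTL library with SAG, 21 members passed the adjusted threshold for ZNF521, beside 15.6% of all tested genes. For SAG, 30 passed it without the ZNF521 library with DMSO, beside 30.6%. Both fits set CTL cells with DMSO alone against 2 libraries, so that no conclusion is drawn from these counts. The median log2 fold change for ZNF521 turned to 0.026 without the CTL library with DMSO (range -0.362 to 0.026), whereas that for SAG stayed below 0 in every setting run (-0.081 to -0.359 with 1 library left out). PLXND1 turned to 0.005 for SAG without the CTL library with DMSO (range -0.756 to 0.005). The cause of these shifts was not tested. Fits with 1 library left out have fewer libraries and a dropped factor. The spread was shared fully across genes with GC offsets, without a filter and, for ZNF521, without either CTL library. Of the fold changes of named members with 1 library left out, 38 kept their side of the threshold, 65 lost it and 1 turned, and under the other settings 159 kept it and 45 lost it. With 46 members highest in CTL cells with DMSO, TMM and library size alone gave 46 each, GC offsets 40, and a mean count of at least 50 left 36 of 50, all added after the data were seen. The shares of all tested genes in these settings are not given here, so that the counts describe the members alone. Depth limits the members of few counts most, such as SEMA4A, SEMA3D and PLXNB3. The edgeR fits pair the libraries across the other factor, and no block by replicate number could be added, since the labels carry none.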
